A study of Mus musculus with 4 samples.

Results

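Epicardial cells, the mesothelial cells that cover the outer surface of the heart, numbered 767 of the 35351 cells kept from 4 libraries of mouse ventricles, which held 45551 cell barcodes in all. Kept cells had 1000 to 7000 genes and at most 10% of their unique molecular identifiers (UMIs, counts of distinct transcript molecules) from mitochondrial genes. Epicardial cells were selected on measured counts. They had at least 4 UMIs in sum of *Upk3b*, *Rspo1*, *Tm4sf5*, *Upk1b*, *Krt7* and *Msln*, under 0.5% of UMIs from the sarcomere genes *Tnnt2*, *Actc1*, *Tnnc1* and *Ttn*, and at most 1 UMI in sum of the endothelial genes *Pecam1*, *Cdh5*, *Emcn* and *Egfl7*. These 14 genes are described without a test. The epicardium grows out of the proepicardium and spreads over the young myocardium. Some of its cells undergo an epithelial to mesenchymal transition (EMT), enter the ventricular wall and form fibroblasts and the mural cells of coronary vessels. The layer is also a source of retinoic acid and of growth factors that act on cardiomyocytes and coronary endothelium.

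The study asked how *Ets1*, a transcription factor gene of endothelial cells, affects growth of the compact myocardium. It compared *Ets1* eKO ventricles (Tie2Cre; *Ets1* fl/fl) with control ventricles (Tie2Cre; *Ets1* fl/+) at embryonic day 14.5, on a C57BL/6 background and with no treatment. Each group had 2 libraries, and each library pooled the ventricles of 3 embryos of either sex. The Tie2 promoter drives Cre in endothelial and blood cells, so the epicardium is not where deletion was aimed, and the controls carry Cre and a floxed *Ets1* allele as well. Each pool is a separate library, so the tests compare 2 pools with 2 pools.

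Values per library are given in the order control replicate 1, control replicate 2, *Ets1* eKO replicate 1 and *Ets1* eKO replicate 2. The libraries held 12641, 7949, 10010 and 14951 barcodes and 124140739, 76931208, 95131419 and 102872196 UMIs. Of these barcodes 9228, 6241, 7688 and 12194 were kept, and 148, 127, 233 and 259 of the kept cells were epicardial. The epicardial cells held 1226646, 1078566, 1852982 and 1260457 UMIs, with medians of 7273.5, 7713, 7101 and 4307 per cell and of 2989, 3159, 2873 and 2083 genes. *Ets1* eKO replicate 2 was the shallowest library, among its epicardial cells and among its kept cells, whose medians were 10826.5, 9813, 10369 and 6596 UMIs. Pairs of libraries shared 19 to 47 barcode sequences, and 0 were shared between epicardial cells. The labels put the 4 libraries in 1 batch. Levels are given as CPM, the summed UMIs of a gene scaled by the summed UMIs of the epicardial cells of the library.

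The libraries did not hold male and female cells in equal parts. *Xist*, the RNA that silences an X chromosome in female cells, stood at 0.815, 260, 193 and 482 CPM in epicardial cells, and the Y-linked *Ddx3y* at 99.5, 49.1, 49.6 and 3.17 CPM. Epicardial cells with Y-linked but no *Xist* UMIs numbered 114 of 148, 46 of 127, 91 of 233 and 0 of 259. Those with *Xist* but no Y-linked UMIs numbered 0, 59, 83 and 198. Control replicate 1 was thus almost entirely male, *Ets1* eKO replicate 2 almost entirely female, and the remaining libraries were mixed, so that sex is partly tied to genotype in the comparisons.

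The selected cells carried epicardial genes that the selection had not used. *Upk3b*, the leading gene of the selection, stood at 821, 1040, 791 and 909 CPM, and *Msln*, which encodes mesothelin, at 324, 355, 328 and 326 CPM. Among genes outside it, the epicardial transcription factor genes *Wt1* (405, 359, 327 and 312 CPM) and *Tbx18* (240, 233, 218 and 195 CPM) were in every library several times above their mean in mesenchymal cells, 53.1 and 55.1 CPM. *Aldh1a2*, the retinoic acid synthesising enzyme of the epicardium, stood at 461, 379, 304 and 393 CPM. After thinning each cell to 2000 UMIs, 48.3% of epicardial cells had a *Wt1* UMI against 7.15% of mesenchymal, 5.37% of endothelial and 0.396% of cardiomyocyte cells. For *Aldh1a2* these shares were 51.8%, 2.00%, 0.0579% and 0.0713%. The label epicardial thus rested on more genes than those that chose the cells. The comparison classes were themselves selected on counts: 6861 mesenchymal cells (at least 10 UMIs of 6 collagen and fibroblast genes), 6980 endothelial cells (at least 4 UMIs of the 4 endothelial genes) and 15439 cardiomyocytes (at least 2% of UMIs from the 4 sarcomere genes), all with 0 UMIs of the 6 epicardial genes.

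Few cells lay near the limit of 4 UMIs, except in *Ets1* eKO replicate 2. The selected cells had medians of 18, 17, 16 and 11 UMIs of the 6 epicardial genes, and 30 of them had exactly 4, namely 4, 5, 6 and 15 per library. Just outside, 31 cells had 3 UMIs (4, 8, 6 and 13), 38 had 2 and 157 had 1. *Wt1* was at 446 CPM in cells with 4 UMIs, 342 CPM with 3, 293 CPM with 2 and 135 CPM with 1. *Muc16*, which encodes a large surface mucin of mesothelia, was at 215, 178, 108 and 7.19 CPM in the same order. Cells with 3 UMIs therefore resembled those with 4 in these genes, while cells with 1 UMI were mostly of another kind. Of cells with at least 4 epicardial UMIs, 62 (7, 6, 13 and 36) were left out with 1% or more of sarcomere UMIs, 5 with 0.5 to 1%, and 37 (3, 2, 11 and 21) for their endothelial UMIs. Most of them were in *Ets1* eKO replicate 2.

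**Figure D1:**
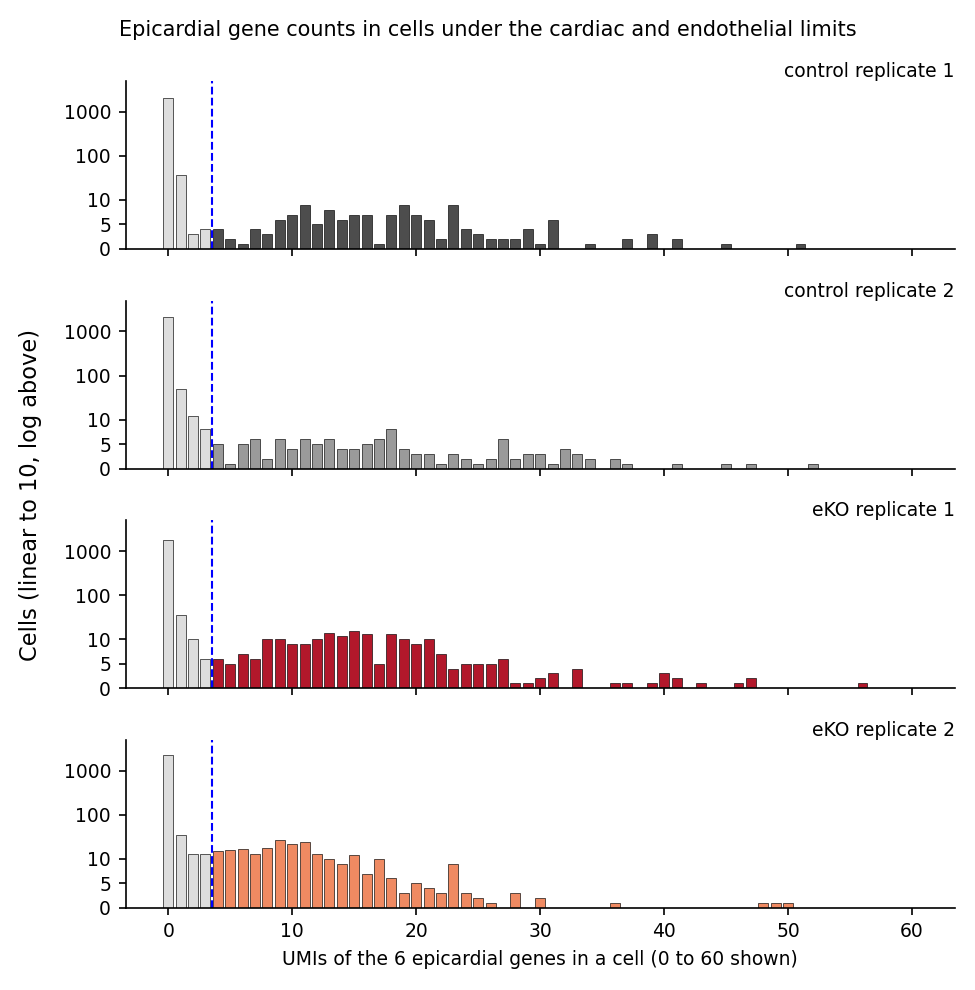
Number of kept cells under the sarcomere and endothelial limits (vertical axis, linear to 10 and logarithmic above) by their summed UMIs of the 6 epicardial genes (horizontal axis, 0 to 60 shown), per library. Bars right of the dashed line are epicardial cells, and cells with 4 or 5 UMIs are most numerous in *Ets1* eKO replicate 2.

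The genes with the highest ratios to other classes included some of the mesothelial surface, and most of the leading 20 belonged to no list. Of 1513 genes at 100 CPM or more in all 4 libraries and outside the selection, 550 had a higher mean in epicardial cells than in the other 3 classes, 57 by at least 5-fold and 29 by at least 10-fold. *Muc16* led them, at 236, 218, 227 and 202 CPM against 0.225 CPM in endothelial cells, its next highest class. *Lrrn4*, a leucine-rich repeat membrane protein gene of mesothelium, was at 173, 165, 148 and 138 CPM against 0.501 CPM. *Muc16* levels overlapped between groups, and *Lrrn4* was slightly lower in *Ets1* eKO without a call. The endocytic receptor gene *Lrp2* followed at 129, 127, 134 and 113 CPM, then *Apela*, which encodes a ligand of the apelin receptor, at 169, 200, 242 and 205 CPM. *Ildr2*, *Egfl6*, *Stk26*, *Gm20186* and *Gpm6a* came next, with means 64.1, 48.0, 35.0, 26.8 and 24.3 times that of the next highest class. *Aldh1a2*, the BMP receptor gene *Bmpr1b*, the prostaglandin-degrading enzyme gene *Hpgd* and the basement membrane gene *Npnt* had ratios of 24.1, 23.1, 22.8 and 21.3. *Wdr17*, *Smim1*, *Myrf*, *Maf*, *S100a6*, *Magi2* and *Cadm1* completed the leading 20, with ratios from 20.4 to 13.7. Since the cells were chosen on measured genes, these ratios describe the class and were not tested.

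**Figure D2:**
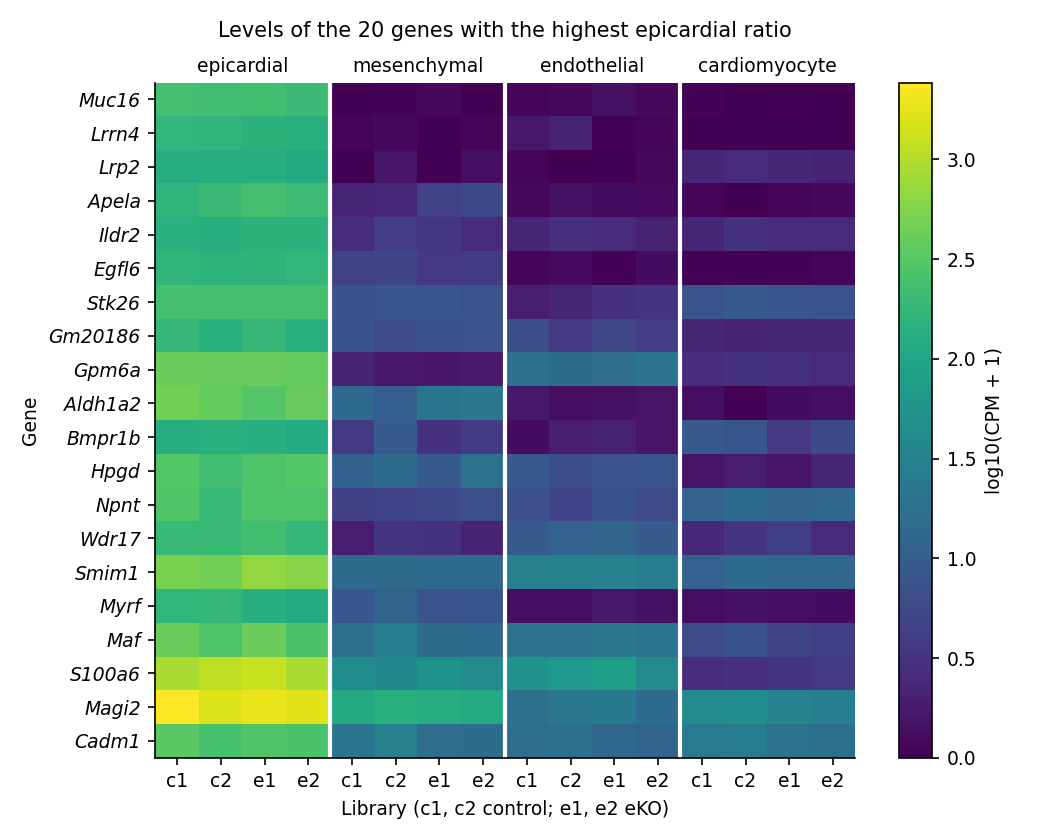
Levels (log10 of CPM + 1, colour) of the 20 genes outside the selection with the highest ratio of epicardial cells to the next highest class, in the sums of each class and library (columns). The 20 were chosen among genes at 100 CPM or more in epicardial cells of all 4 libraries, so their high level there was set by the choice. The 4 epicardial columns resemble each other.

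Matrix and signalling genes were among the abundant epicardial transcripts. The matrix list summed to a mean of 18554 CPM and the growth factor list to 11073 CPM. Of the matrix list (47 genes, all with UMIs), the most abundant was *Sparc*, a collagen-binding glycoprotein gene, at 4572, 4878, 4519 and 4371 CPM. The fibrillar collagen gene *Col1a1* stood at 3014, 2445, 2326 and 2115 CPM, above its mean of 1025 CPM in mesenchymal cells. *Fras1*, which anchors epithelia to their basement membrane, was at 844, 774, 726 and 634 CPM against means of 5.825 CPM in mesenchymal cells, 1.365 CPM in endothelial cells and 104 CPM in cardiomyocytes. Its level was lowest in *Ets1* eKO replicate 2 and the groups did not overlap, without a call. Of 56 growth factor and secreted signal genes, 55 had UMIs, and the heparin-binding factors *Ptn* (1885, 2088, 2031 and 2350 CPM) and *Mdk* (1074, 1289, 1152 and 1386 CPM) were most abundant. *Dlk1*, a non-canonical Notch ligand gene, was at 1289, 826, 990 and 1065 CPM against 41.5 CPM in mesenchymal and 102 CPM in endothelial cells. The guidance genes *Slit3* (1037, 1069, 949 and 772 CPM) and *Sema3d* (642, 481, 642 and 478 CPM) were also above both classes. *Igf2*, the mitogen that the epicardium supplies to the myocardium, stood at 971, 863, 890 and 858 CPM, below its endothelial mean of 1234 CPM. For *Dlk1*, *Sema3d* and *Igf2* the 2 groups overlapped.

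Receptor and transcription factor genes were measured as well. *Erbb4*, a neuregulin receptor gene, was the most abundant of 49 receptor genes at 1193, 853, 1104 and 1031 CPM, with means of 1000 CPM in mesenchymal cells and 1120 CPM in cardiomyocytes. Of 26 transcription factor genes, *Meis2* led with 651, 774, 671 and 551 CPM, followed by *Sox6* with 667, 608, 614 and 509 CPM. *Tcf21*, a factor of epicardium and fibroblast progenitors, was low at 46.5, 43.6, 42.6 and 55.5 CPM. In the retinoic acid list *Aldh1a2* was among the most abundant, and *Aldh1a3*, *Stra6*, *Cyp26a1* and *Cyp26c1* had 0 UMIs in epicardial cells. Of the EMT list the cytoskeletal gene *Vim* (1371, 1642, 1481 and 1718 CPM) and the cadherin gene *Cdh11* (1018, 1019, 925.5 and 816 CPM) led, and of the Hippo list the transcription factor gene *Tead1* (303, 366, 332 and 338 CPM). For *Meis2*, *Vim* and *Tead1* the groups overlapped.

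*Ets1* itself was barely detected in epicardial cells and did not differ detectably between genotypes there. It stood at 15.5, 16.7, 18.3 and 15.9 CPM, against 305, 273, 137 and 102 CPM in endothelial and 101, 85.0, 61.6 and 59.1 CPM in mesenchymal cells. The epicardial libraries overlapped, while both other classes were lower in both *Ets1* eKO libraries. The log2 fold change in epicardial cells was 0.19 (SE 0.33, edgeR with Benjamini-Hochberg adjustment, adjusted p = 0.910). Its difference from the endothelial change, where *Ets1* was lower by a log2 fold change of -1.20, passed the test (1.38, SE 0.30, edgeR with Benjamini-Hochberg adjustment, adjusted p = 0.00291). Its difference from the mesenchymal change did not pass (0.72, SE 0.31, edgeR with Benjamini-Hochberg adjustment, adjusted p = 0.682). UMIs come from transcript 3′ ends, so whether they include the floxed part of *Ets1* was not tested, and the values do not check deletion.

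Markers of other cell types were measured in the same cells. All 18 cardiomyocyte markers had UMIs, with sums of 3121, 2860, 3272 and 4011 CPM against a mean of 55103 CPM in cardiomyocytes, and the most abundant was the myosin light chain gene *Myl7* at 853, 853, 1180 and 1317 CPM. *Myl7* was at 21.7 to 40.9 CPM in mesenchymal libraries. *Myl2* was at 279, 114, 159 and 284 CPM in epicardial cells, with mesenchymal and endothelial means of 225 and 197 CPM, and the part of background RNA in either gene was not tested. *Ets1* eKO replicate 2 had the highest cardiomyocyte sum. All 18 endothelial markers had UMIs, with sums of 443, 402, 404 and 413 CPM, most of them from *Tek*, which encodes Tie2 (161, 137, 174 and 127 CPM) and *Npr3* (133, 93.6, 119 and 109 CPM), and the selection gene *Pecam1* was at 2.45, 0, 1.08 and 0.793 CPM. The immune list summed to 52.2, 68.6, 69.6 and 67.4 CPM, of which *Csf1r* made up 42.4, 54.7, 57.2 and 51.6 CPM, with 10 of the 14 genes of the list detected and *Tyrobp*, *Ptprc*, *Laptm5* and *Mrc1* at 0. The erythroid list summed to 205, 89.0, 201 and 235 CPM, led by *Hbb-bs*, against means of 4977 CPM in mesenchymal and 4695 CPM in endothelial cells. The Schwann and neural list summed to 8.97, 10.2, 9.71 and 7.14 CPM, led by *Erbb3*, with *Sox10* and *Foxd3* at 0. The liver and lung epithelium list summed to 75.0, 71.4, 73.9 and 65.1 CPM, nearly all from the transferrin gene *Trf*, with *Alb*, *Sftpc* and *Nkx2-1* at 0.

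Epicardial cells made up 1.60% (95% exact binomial interval 1.36 to 1.88), 2.03% (1.70 to 2.42), 3.03% (2.66 to 3.44) and 2.12% (1.88 to 2.40) of kept cells. The controls were the 2 lowest values, but control replicate 2 and *Ets1* eKO replicate 2 were within each other's intervals. The means were 1.82% ± 0.305 (SD, n = 2) in controls and 2.58% ± 0.641 in *Ets1* eKO, a difference of 0.758 percentage points (exact two-sided permutation test over libraries, p = 0.33, the smallest that 2 against 2 allows). Without *Ets1* eKO replicate 1 the difference was 0.305, and without *Ets1* eKO replicate 2 it was 1.21. Among cells under the sarcomere and endothelial limits, a denominator chosen after seeing the data, the shares were 6.58%, 5.58%, 11.2% and 10.1%. Here the groups lay further apart relative to their spread, at 6.08% ± 0.704 and 10.6% ± 0.837 (SD, n = 2, exact permutation p = 0.33). With at least 8 epicardial UMIs, or with stricter sarcomere and endothelial limits, the groups overlapped (differences 0.548 and 0.693). With markers counted after thinning to 2000 UMIs the shares were 1.43%, 1.85%, 2.88% and 2.06%, and the groups did not overlap (difference 0.831). They did not overlap in the remaining alternatives either (differences 0.864, 0.610 and 0.672). Shares also depend on how the tissue was dissociated. Its part, and that of depth beyond this thinning, was not tested.

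Cells with mitotic transcripts were a small share of the epicardium. After thinning to 2000 UMIs, at least 2 UMIs of the 26 genes of G2 phase and mitosis were found in 9.66% (14 of 145, interval 5.38 to 15.7), 11.02% (14 of 127, 6.16 to 17.8), 15.5% (36 of 233, 11.1 to 20.7) and 13.9% (35 of 252, 9.87 to 18.8) of epicardial cells. Cells with fewer UMIs than that were left out. The highest control was below the lowest *Ets1* eKO library, with intervals that overlapped. The means were 10.3% ± 0.968 and 14.7% ± 1.10 (SD, n = 2, exact two-sided permutation p = 0.33, the smallest possible). Without thinning the shares were 25.0%, 26.0%, 25.3% and 22.4%, and both *Ets1* eKO libraries lost their excess over the controls. The part of depth in this was not tested. The epicardial shares were below those of every comparison class, which were 26.8%, 25.7%, 31.3% and 35.1% in mesenchymal, 28.2%, 29.8%, 30.5% and 36.0% in endothelial and 42.8%, 36.2%, 42.8% and 46.6% in cardiomyocyte cells. The endothelial and mesenchymal classes had *Ets1* eKO libraries above controls as well.

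**Figure D3:**
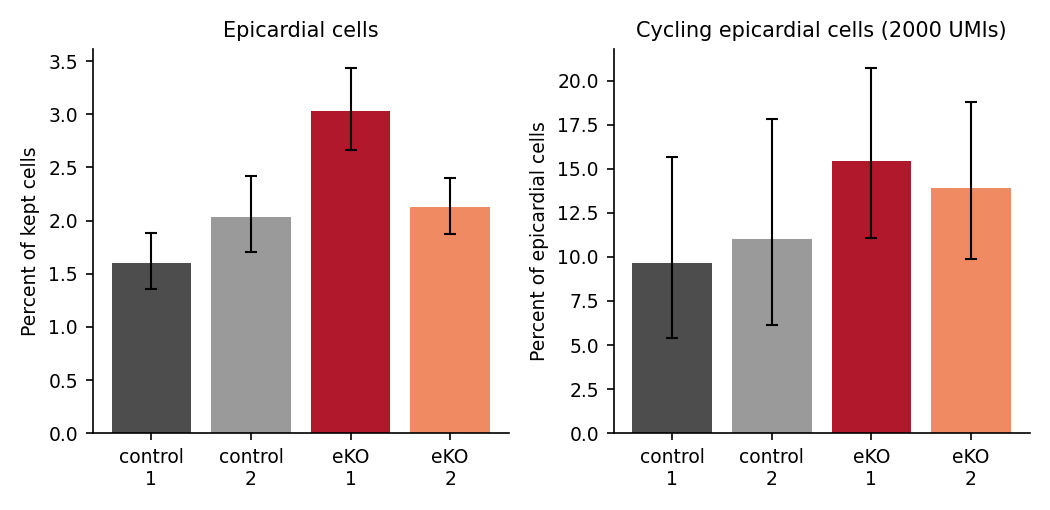
Epicardial cells as a percentage of kept cells (left) and epicardial cells with at least 2 UMIs of the G2 and mitosis genes after thinning to 2000 UMIs (right), per library (grey controls, red and orange *Ets1* eKO). Error bars are 95% exact binomial intervals, which cover counting error only.

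Against this background, the genotype comparison of epicardial cells called few genes. Of 10067 genes tested, 7 passed an adjusted p of 0.05 (0.0695%), all of them lower in *Ets1* eKO (0.0695%) and 0 higher (edgeR quasi-likelihood test with Benjamini-Hochberg adjustment). At an unadjusted p under 0.05, 357 genes were higher (3.55%) and 411 lower (4.08%). Under total count scaling 166 were higher and 716 lower at the same cut. DESeq2 called 0 genes, with 158 at an unadjusted p under 0.05. *Mecom*, a zinc finger transcription factor gene (chr3:29951296-30548008, minus strand), stood at 65.2, 181, 24.3 and 17.5 CPM. It was high in control replicate 2 above all, and both *Ets1* eKO libraries were below both controls. Its log2 fold change was -2.42 (SE 0.35, edgeR with Benjamini-Hochberg adjustment, adjusted p = 0.00743). *Eln*, which encodes the elastin of elastic fibres (chr5:134702593-134747323, minus strand), stood at 198, 663, 106 and 114 CPM, and again control replicate 2 was highest. Its log2 fold change was -1.88 (SE 0.33, adjusted p = 0.0329 by edgeR with Benjamini-Hochberg adjustment).

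The other 5 genes had lower levels. *Sorcs2*, a sorting receptor gene (chr5:36017180-36398139, minus strand), stood at 44.8, 67.7, 14.03 and 22.2 CPM (log2 fold change -1.58, SE 0.29, edgeR with Benjamini-Hochberg adjustment, adjusted p = 0.0369). *Plcl1*, a phospholipase C-like protein gene without catalytic activity (chr1:55405921-55754285, plus strand), stood at 63.6, 94.6, 31.8 and 21.4 CPM (-1.44, SE 0.25, edgeR with Benjamini-Hochberg adjustment, adjusted p = 0.0329). *Plcxd3*, a phospholipase C domain gene (chr15:4375491-4575553, plus strand), stood at 44.0, 46.4, 13.5 and 13.5 CPM (-1.65, SE 0.27, edgeR with Benjamini-Hochberg adjustment, adjusted p = 0.0278). In these genes the 2 controls lay closer together than in *Mecom* and *Eln*, and both were above both *Ets1* eKO libraries. *Postn*, which encodes the matrix protein periostin of mesenchymal cells (chr3:54361109-54391037, plus strand), stood at 64.4, 95.5, 26.4 and 36.5 CPM (-1.28, SE 0.24, edgeR with Benjamini-Hochberg adjustment, adjusted p = 0.0471). *Prdm6*, a PR domain gene known from smooth muscle, stood at 19.6, 55.6, 7.02 and 7.14 CPM (-2.28, SE 0.43, edgeR with Benjamini-Hochberg adjustment, adjusted p = 0.0471).

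The calls depended on control replicate 2, and those of *Mecom* and *Postn* above all on few cells. Without that library the log2 fold changes of the 7 genes were -1.61 to -0.77, all still negative, beside -2.42 to -1.28 with all libraries. Over all alternatives the highest values of *Sorcs2*, *Plcl1* and *Prdm6* were -1.25, -1.13 and -1.37. Without control replicate 2, 17 genes passed (9 lower and 8 higher), and of the 7 only *Mecom* and *Plcxd3* were among them, with *Eln* at a log2 fold change of -0.77. Without control replicate 1 the count was 80 (65 lower and 15 higher), without *Ets1* eKO replicate 1 it was 136 (72 lower and 64 higher), and without *Ets1* eKO replicate 2 it was 103 (43 lower and 60 higher), each with all 7 genes. For *Mecom*, 5 cells held 91.3% of the UMIs in control replicate 1, where 8 of 148 cells had any, and 37.9%, 64.4% and 59.1% in the other libraries. For *Postn*, 5 cells held 93.7%, 79.6%, 95.9% and 82.6% of the UMIs, so the values of each library rest on a handful of cells. The shares held by 5 cells were 66.7%, 55.0%, 46.2% and 55.6% for *Prdm6* and 48.1%, 66.0%, 48.0% and 52.9% for *Plcxd3*. Without the 5 cells of most UMIs the groups overlapped for *Mecom* and *Postn*, and for the other 5 genes both controls were still above both *Ets1* eKO libraries. After the cells with the highest doublet scores were removed (5, 8, 8 and 7 epicardial cells), *Postn* turned to a log2 fold change of 1.14, and 4 of the 7 genes still passed. *Eln* UMIs were in 62.2%, 63.0%, 44.6% and 32.8% of cells, with 37.0%, 43.2%, 16.3% and 17.4% of the UMIs in 5 cells, and without those cells it was at 134, 397, 91.9 and 97.0 CPM. *Sorcs2* UMIs were in 27.7%, 38.6%, 10.3% and 9.65%. With stricter sarcomere and endothelial limits, or with markers counted at equal depth, edgeR called 0 genes (685 and 633 at an unadjusted p under 0.05). The log2 fold changes of the 7 genes were then -2.68 to -1.05 and -2.76 to -1.41, beside -2.42 to -1.28 with all epicardial cells. With sex as a term, chosen after seeing the data, 6 genes passed, 4 of them among the 7. For this fit the cells were split by sex, and cells with both or neither signal were left out. Control replicate 2 and *Ets1* eKO replicate 1 each gave a male and a female part. Such parts of the same library are not separate replicates, so the calls of this fit rest on fewer libraries than parts.

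The mural and smooth muscle markers include *Eln*, which was the only one of them called. All 14 had UMIs, and they summed to 693, 1279, 481 and 572 CPM, with *Eln* the most abundant and with 38.1% of the list's UMIs of control replicate 2 in 5 cells. *Acta2* was at 61.1, 85.3, 18.3 and 96.8 CPM and *Tagln* at 60.3, 108, 28.6 and 80.1 CPM, and in both the groups overlapped. The mesenchymal and fibroblast markers, which include *Postn*, summed to 10327, 9123, 8947 and 7888 CPM, led by *Col1a2*, with 16 of 16 genes detected. *Postn* had a mean of 1113 CPM in mesenchymal cells, which were selected on collagen and fibroblast genes, far above its epicardial values. *Eln* had a mean of 374 CPM there (351, 887, 142 and 117 CPM), again highest in control replicate 2. Its mesenchymal log2 fold change was -2.14. The epicardial change did not differ from it past the threshold (0.33, SE 0.17, edgeR with Benjamini-Hochberg adjustment, adjusted p = 0.830). *Prdm6* was at -2.57 in mesenchymal cells, and *Mecom*, *Plcxd3*, *Sorcs2* and *Plcl1* at -0.72, -0.32, -0.81 and -0.68, all without a call there. The part of mural or mesenchymal transcripts in the 7 calls was not tested.

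**Figure D4:**
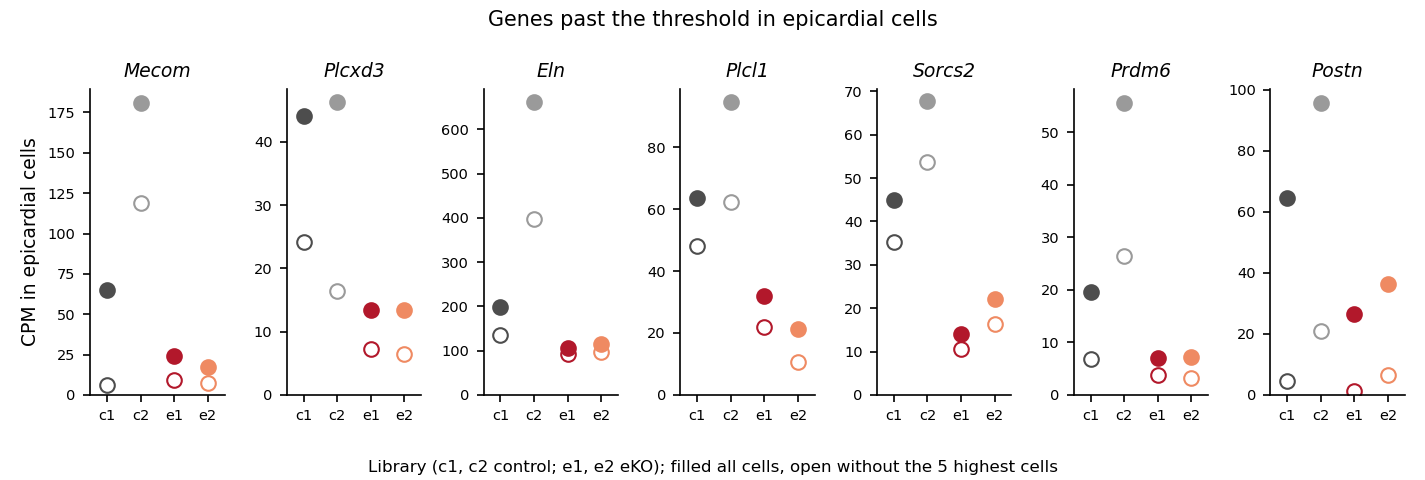
Levels (CPM, vertical axes from 0) of the 7 genes past the threshold in the epicardial cells of each library (c1 and c2 controls, e1 and e2 *Ets1* eKO), in all cells (filled) and without the 5 cells with the most UMIs of the gene (open). Without those cells *Mecom* is at 6.20, 119, 8.96 and 7.38 CPM and *Postn* at 4.41, 21.1, 1.12 and 6.62 CPM, and the groups of the other 5 genes do not overlap.

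The genes of next lowest p did not pass the threshold, and their adjusted p ran from 0.0604 to 0.223 (edgeR with Benjamini-Hochberg adjustment). On the lower side they were *Zfp804a*, *Nr4a3*, *Sfrp2*, *Dpysl3*, *Gpc6*, *Ccser1*, *Slurp1* and *Rgs7*. *Sfrp2*, a secreted Wnt antagonist gene, stood at 95.4, 271, 59.4 and 62.7 CPM (log2 fold change -1.49, SE 0.30, edgeR with Benjamini-Hochberg adjustment, adjusted p = 0.0643). *Nr4a3*, an orphan nuclear receptor gene, stood at 46.5, 41.7, 18.3 and 11.9 CPM, and both controls were clearly above both *Ets1* eKO libraries (-1.41, SE 0.28, edgeR with Benjamini-Hochberg adjustment, adjusted p = 0.0628). On the higher side they were *Mt1*, *Hist1h1b*, *Rhox5*, *Rpa2*, *Gsta4*, *Sema3e*, *Fabp4* and *Hist1h2ap*. Of these *Rhox5* is on chromosome X, and the part of sex in it was not tested. *Mt1*, a metallothionein gene, stood at 47.3, 77.9, 196 and 95.2 CPM (1.34, SE 0.27, edgeR with Benjamini-Hochberg adjustment, adjusted p = 0.0643). *Rpa2*, a gene of the single-strand DNA binding complex of replication, stood at 16.3, 15.8, 31.8 and 35.7 CPM, with both *Ets1* eKO libraries near 2-fold the controls (1.14, SE 0.28, edgeR with Benjamini-Hochberg adjustment, adjusted p = 0.206).

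By function, the lists of epicardial genes showed few calls, so their medians are set beside the median of all 10067 genes, which was 0.01 on the log2 scale, with 51.5% of genes positive. Under total count scaling the median of all genes was lower, and list medians are read relative to it. The medians are of epicardial cells alone, and whether the shift of a list is particular to them was not tested. Among transcription factors, 20 were tested, 5 with a positive and 15 with a negative log2 fold change, a median of -0.19 and 0 called (3 lower and 0 higher at an unadjusted p under 0.05, edgeR). Without *Ets1* eKO replicate 2 the median was -0.02. The list also summed lower in both *Ets1* eKO libraries in mesenchymal (4533, 5236, 4271 and 3978 CPM) and endothelial cells (2241, 2363, 2077 and 1808 CPM). The same held in cardiomyocytes (2490, 2641, 2263 and 1850 CPM). In epicardial cells *Wt1* and *Tbx18* had log2 fold changes of -0.17 and -0.11. *Zfpm2*, a GATA cofactor gene, had 551, 639, 426 and 409 CPM, and *Tbx20* had 147, 145, 101 and 108 CPM, with controls above *Ets1* eKO in both. After removal of the cells of highest doublet score *Tbx20* turned to a log2 fold change of 0.14. The mesothelial surface and keratin list had 7 positive and 13 negative of 20, with a median of -0.12, which was 0.01 with sex as a term, and *Krt19*, a keratin gene, had 307, 340, 268 and 302 CPM. The retinoic acid list had 4 positive and 8 negative of 12 and a median of -0.07, which was 0.03 without control replicate 2 and 0.04 without cells holding immune or erythroid counts. In it the retinol dehydrogenase gene *Rdh10* had 29.3, 26.9, 36.2 and 42.8 CPM and *Dhrs3*, a retinal reductase gene, 9.78, 52.8, 6.48 and 4.76 CPM, where control replicate 2 stood apart. These 2 lists had 0 calls as well, with 2 and 2 genes at an unadjusted p under 0.05 (edgeR).

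Signals and receptors gave no common direction for the former and mostly negative values for the latter. Of 43 growth factor genes 22 were positive and 21 negative, with a median of 0.00 and 0 called (2 higher and 6 lower at an unadjusted p under 0.05, edgeR). *Igfbp5*, which binds insulin-like growth factors, stood at 622, 769, 374 and 405 CPM, with both controls above both *Ets1* eKO libraries (log2 fold change -0.75, SE 0.17, edgeR with Benjamini-Hochberg adjustment, adjusted p = 0.148). *Angpt1*, a *Tek* ligand gene, was at 28.5, 31.5, 42.6 and 46.0 CPM, and *Igf2* did not differ detectably (0.02, SE 0.17, edgeR with Benjamini-Hochberg adjustment, adjusted p = 0.993). Of 34 receptor genes 10 were positive and 24 negative, with a median of -0.19 and 0 called (0 higher and 3 lower at an unadjusted p under 0.05, edgeR). Without control replicate 2 the receptor median was -0.05, and the growth factor median ranged from -0.17 to 0.08 with each library left out. The TGF-beta family receptor genes *Acvr1* (62.8, 63.0, 43.7 and 40.5 CPM) and *Tgfbr2* (49.7, 60.3, 35.1 and 38.1 CPM) were among the negative ones. In both the controls were above the *Ets1* eKO libraries. The receptor list also summed lower in both *Ets1* eKO libraries in mesenchymal (5436, 6184, 5069 and 4539 CPM) and endothelial cells (5366, 5430, 4585 and 4294 CPM). The same held in cardiomyocytes (3495, 3965, 3172 and 2785 CPM).

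Matrix and EMT lists held the 2 list genes that passed, *Eln* and *Postn*. The 23 lists have 498 distinct genes, not all of them tested, and 7 of all 10067 genes tested passed (0.0695%). Of 42 matrix genes tested 11 were positive and 31 negative, with a median of -0.16 (-0.27 to -0.06 over the alternatives), and *Eln* was the 1 call. *Fbn1*, the microfibril gene fibrillin 1, had 151, 163, 107 and 89.7 CPM (log2 fold change -0.58, SE 0.18, edgeR with Benjamini-Hochberg adjustment, adjusted p = 0.348). Of 20 EMT genes 4 were positive and 16 negative, with a median of -0.23 (-0.32 to -0.11 over the alternatives) and *Postn* the 1 call. *Zeb2*, an EMT transcription factor gene, had 36.7, 66.8, 29.7 and 25.4 CPM and *Tnc*, which encodes tenascin C, 16.3, 27.8, 8.10 and 11.1 CPM. Of 21 genes of the Hippo list 12 were positive and 9 negative, with a median of 0.08, which was -0.07 without control replicate 1 and -0.10 without *Ets1* eKO replicate 1. Its secreted target gene *Ccn1* had 69.3, 42.6, 34.0 and 27.0 CPM. The mesenchymal markers had 4 positive and 10 negative of 14 (median -0.18, from -0.28 to -0.02 over the alternatives) and the mural markers 2 positive and 6 negative of 8 (median -0.47, but -0.19 without control replicate 2 and -0.14 without *Ets1* eKO replicate 1).

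The cell cycle lists and the hypoxia and glycolysis list had positive medians. The S phase list had 22 positive and 4 negative of 26 with a median of 0.34 (0.23 to 0.46 over the alternatives), and the G2 and mitosis list 22 positive and 3 negative of 25 with a median of 0.33 (0.19 to 0.79 over the alternatives), with 0 calls (5 and 2 higher at an unadjusted p under 0.05, edgeR). *Top2a*, a topoisomerase gene of dividing cells, had 109, 118, 149 and 124 CPM, and *Mki67* 85.6, 77.9, 78.8 and 80.1 CPM. *Top2a* was above both controls in both *Ets1* eKO libraries, and *Mki67* was not. The hypoxia and glycolysis list had 23 positive and 4 negative of 27, with a median of 0.24 and 0 calls (4 higher at an unadjusted p under 0.05, edgeR). Without *Ets1* eKO replicate 2 the median was 0.07. That library had the highest list sum in epicardial cells (4181, 4393, 4377 and 5447 CPM). It also had the highest sum in mesenchymal (3731, 4362, 4033 and 5093 CPM) and endothelial cells (3900, 3862, 3885 and 4834 CPM) and in cardiomyocytes. In epicardial cells the enzyme genes *Pgk1*, on chromosome X (145, 138, 155 and 231 CPM), and *Pgam1* (247, 235.5, 269 and 370 CPM) were highest in *Ets1* eKO replicate 2. That library was the shallowest and almost entirely female, and the part of either was not tested. The stress and immediate early list had 7 positive and 18 negative of 25 with a median of -0.10, which was 0.07 without control replicate 1, and *Btg2*, an antiproliferative gene of that response, had 520, 331, 266 and 273 CPM. The 13 mitochondrial genes had 5 positive and 8 negative, with a median of -0.17.

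The remaining lists concern other cells and technical signals. Cardiomyocyte markers had 13 positive and 5 negative of 18 with a median of 0.21, which was -0.00 without control replicate 2. *Myl7* had a log2 fold change of 0.63 (SE 0.17, edgeR with Benjamini-Hochberg adjustment, adjusted p = 0.231). Erythroid markers had 5 positive of 5 with a median of 0.62, which was 1.60 without control replicate 1 and 0.13 without control replicate 2, the library with their lowest sum. Endothelial markers had 5 positive and 3 negative of 8 with a median of 0.10, which was -0.06 without *Ets1* eKO replicate 1, and sex-linked genes 1 positive and 4 negative of 5. Genes often moved by technical causes had 3 positive and 6 negative of 9 with a median of -0.29 (-0.59 to -0.05 over the alternatives), and *Neat1* among them had 26.1, 29.7, 10.8 and 11.1 CPM. The immune list had 1 gene tested, *Csf1r*, which was positive, the liver and lung list 1, *Trf*, which was negative, and the Schwann and neural list 0. None of the 23 lists had a call beyond *Eln* and *Postn*.

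**Figure D5:**
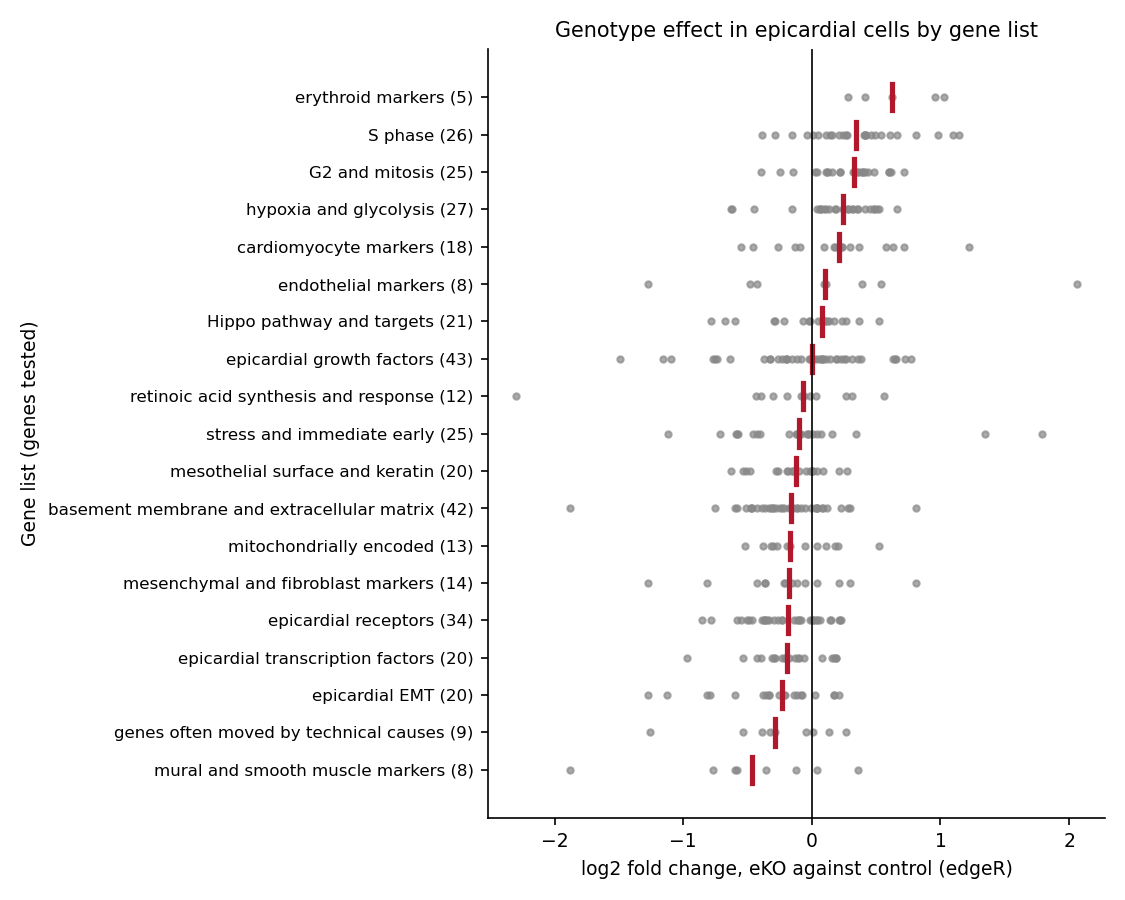
Log2 fold change of *Ets1* eKO against control in epicardial cells (horizontal axis, edgeR) for each gene tested (grey points) of the lists with at least 5 genes tested (number in parentheses), without the sex-linked list. Red bars are list medians, from -0.47 for mural to 0.62 for erythroid markers, beside 0.01 over all genes.

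Epicardial cells also varied among themselves along the counts that chose them. Cells with 4 to 7, 8 to 15, 16 to 31 and 32 or more UMIs of the 6 epicardial genes numbered 113, 312, 282 and 60. Their median UMIs were 3971, 5247, 7489 and 12305, and depth thus rises along this order. Of the 259 epicardial cells of *Ets1* eKO replicate 2, 61 were in the lowest bin and 5 in the highest. From the lowest to the highest bin *Wt1* was at 429, 356, 341 and 294 CPM and *Tbx18* at 172, 204, 222 and 284 CPM. *Krt19* was at 156, 245, 292 and 529 CPM and *Krt8* at 52.6, 55.3, 81.0 and 179 CPM. The keratin gene *Krt7* is among the genes whose counts define the bins, so these values are described without a test. The mitotic gene *Top2a* was at 46.8, 109, 109 and 277 CPM in the same bins. The fibroblast receptor gene *Pdgfra* was at 58.5, 18.2, 16.2 and 9.85 CPM, highest in the lowest bin. The bins share libraries unequally and follow depth, and the part of either was not tested.

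The genotype effect was compared between classes by a test of the difference itself. Mesenchymal cells had *Ets1* at 101, 85.0, 61.6 and 59.1 CPM, and whether Cre had acted in some of them was not tested. Against mesenchymal cells, 38 of 13841 genes differed (0.275%), 16 with a higher and 22 with a lower log2 fold change in epicardial cells (edgeR, class by condition term, Benjamini-Hochberg adjustment). Of these, 1 was called within epicardial cells and 0 within mesenchymal cells. The share of all genes called within mesenchymal cells was not set beside them, so nothing is read from these counts. *Cxcl12*, a chemokine gene, stood at 12.2, 29.7, 15.1 and 15.9 CPM in epicardial and 25.1, 80.9, 5.21 and 5.003 CPM in mesenchymal cells. It was lower in both *Ets1* eKO libraries of the mesenchyme, without a call there, and the epicardial libraries overlapped (difference of log2 fold changes 2.87, SE 0.35, edgeR with Benjamini-Hochberg adjustment, adjusted p = 4.36e-05). *Fbln5*, an elastic fibre gene, was at 108, 185, 90.7 and 68.2 CPM against 192, 341, 73.7 and 51.6 CPM. *Aldh1a2* was at 461, 379, 304 and 393 CPM in epicardial and 13.5, 9.19, 19.99 and 20.99 CPM in mesenchymal cells. In the latter the low level was higher in both *Ets1* eKO libraries without a call (difference -1.17, SE 0.17, edgeR with Benjamini-Hochberg adjustment, adjusted p = 0.000465). Whether transcripts free in the suspension, or epicardial cells missed by the selection, took part in the mesenchymal values was not tested. Without *Ets1* eKO replicate 1 only 2 genes differed, *Cxcl12* among them, and without control replicate 1 the count was 187.

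Against endothelial cells, at which Cre was aimed, 181 of 14579 genes differed (1.24%), 64 with a higher and 117 with a lower log2 fold change in epicardial cells (edgeR, class by condition term, Benjamini-Hochberg adjustment). Of these, 58 were called within endothelial cells and 4 within epicardial cells, where 7 of 10067 genes tested were called (0.0695%). The share of all genes called within endothelial cells was not set beside the 58, so no excess is read from that count. *Lgals1*, a galectin gene, stood at 496, 832, 457 and 529 CPM in epicardial and 312, 370, 891 and 986 CPM in endothelial cells. The endothelial libraries rose in *Ets1* eKO and the epicardial ones overlapped (difference -1.84, SE 0.11, edgeR with Benjamini-Hochberg adjustment, adjusted p = 2.16e-21). The collagen gene *Col1a2* was at 2923, 2450, 2524 and 2038 CPM in epicardial cells and 59.5, 52.4, 148 and 122 CPM in endothelial cells, and *Dlk1* at 1289, 826, 990 and 1065 CPM against 53.7, 43.3, 130 and 183 CPM. Both genes are thus abundant epicardial transcripts whose higher level in *Ets1* eKO endothelium had no counterpart past the test in the epicardium. Whether transcripts free in the suspension took part in the endothelial values was not tested. *Sorcs2*, called lower in epicardial cells, was at 3.54, 4.23, 12.0 and 9.47 CPM in endothelial cells, the opposite direction (difference -3.11, SE 0.33, edgeR with Benjamini-Hochberg adjustment, adjusted p = 1.18e-10). Without *Ets1* eKO replicate 1 or 2 the counts of genes that differed were 120 and 118.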

How the data were processed

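Droplet single-cell RNA sequencing of 4 ventricle libraries (2 control, 2 *Ets1* eKO) was analysed from the deposited matrices of raw UMI counts per gene and barcode, which the authors made with Cell Ranger 7.1.0 on mm10 and which hold called cells only. The submitters' processing notes also name Seurat 4.3.0. The authors describe a correction for background RNA with CellBender and doublet removal with DoubletFinder. Whether the deposited matrices precede these steps is not given in the sources used here, and no background was removed here. Selection of epicardial cells and the gene lists were chosen with earlier results of these data known. UMI counts were summed per library over epicardial cells and tested with edgeR 4.0.16 in R 4.3.3 (quasi-likelihood, TMM, filterByExpr, condition alone, Benjamini-Hochberg adjustment at 0.05), leaving the 14 selection genes out of the tests. SE is the unshrunk coefficient over the root of F. Differences between classes used library, class and class by condition. Shares have 95% Clopper-Pearson intervals and exact permutation tests over libraries. The scripts were tested on simulated data.

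Named genes are the genes past the threshold with groups that do not overlap and a mean of at least 20 CPM (up to 12 per direction), where fewer pass also the 8 of lowest p per direction, the 20 of highest epicardial ratio, the 5 of lowest p per class difference, and genes of the 23 lists, picked as examples after their values were seen. *Sorcs2* was named for the class difference after its values were seen. Positions are from GENCODE vM21 on GRCm38, in which 32235 of 32285 gene IDs were found. Of 498 distinct list genes 497 were found. The results were also computed with DESeq2 1.42.0, with scaling by total counts, with all genes in place of filterByExpr, with a block for replicate number, without each library in turn, with other cell limits, without the cells of highest Scrublet score (scanpy 1.11.5, 0.8% per 1000 barcodes), and without cells holding immune or erythroid counts. No other doublet removal was done. Sex as a term, leaving out chromosomes X and Y and another denominator were chosen after seeing the data. Other tools were Python 3.11.15, numpy 2.4.6, pandas 2.3.3, scipy 1.17.1 and matplotlib 3.10.9.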

Additional observations from a re-analysis of the deposited data

Results flagged for a closer look

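Genotype effects that differed between epicardial and other cells by the class by condition term of edgeR (Benjamini-Hochberg adjustment) stand out here. Against mesenchymal cells 38 genes differed, and the 5 of lowest p were *Cxcl12* (difference of log2 fold changes 2.87), *Fbln5* (1.18), *Aldh1a2* (-1.17), *Thsd7a* (1.51) and *Mecom* (-1.66). Of the 37 with an effect in both classes, 23 had the larger effect in mesenchymal cells. This was not counted over all genes tested, so no excess is read from it. *Thsd7a* was at 148, 99.2, 171 and 160 CPM in epicardial and 27.8, 46.1, 17.5 and 15.7 CPM in mesenchymal cells, in the order of libraries used for all values. *Mecom* was at 686, 936, 496 and 418 CPM in mesenchymal cells, above its epicardial levels of 65.2, 181, 24.3 and 17.5 CPM. Without *Ets1* eKO replicate 1, 4 of these 5 differences no longer passed and *Cxcl12* did, and 2 genes differed in all.

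Against endothelial cells 181 genes differed, led by *Lgals1* (-1.84), *Col1a2* (-1.49), *Dlk1* (-1.68), *Mt1* (-2.68) and *Gpc6* (-2.49). Of the 170 with an effect in both classes, 114 had the larger effect in endothelial cells. Here too the count over all genes tested was not made, and no excess is read. *Mt1* was at 13.4, 17.3, 255 and 213 CPM in endothelial cells, higher in both *Ets1* eKO libraries, beside 47.3, 77.9, 196 and 95.2 CPM in epicardial cells. *Gpc6*, which encodes a glypican, was at 116, 128, 263 and 192 CPM in endothelial cells and at 113, 337, 54.0 and 88.1 CPM in epicardial cells, where the order of the groups was the opposite. The 5 differences passed without each library in turn, and the count of genes fell to 120 without *Ets1* eKO replicate 1 and to 118 without *Ets1* eKO replicate 2.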

How the results depend on the processing

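The 7 calls in epicardial cells, all lower in *Ets1* eKO, depend on the cells and the test. Leaving out cells with any immune-list UMI, mostly of *Csf1r*, or over 1% erythroid UMIs kept 514 of the 767 epicardial cells. The number of calls in either direction was 16 with total count scaling (all lower), 75 without a filter on low counts (59 lower and 16 higher), 14 with at least 8 epicardial UMIs, 13 without genes of chromosomes X and Y (an alternative chosen after seeing the data), 2 without cells holding immune or erythroid counts (1 in each direction), and 17 to 136 with each library left out in turn. It was 0 with stricter sarcomere and endothelial limits and 0 with markers counted at equal depth (edgeR, 685 and 633 at an unadjusted p under 0.05), and 0 with DESeq2 (158). With the replicate number as a block it was 13, with all 7 among them. Libraries of the same number share only that number, and the correlation of their deviations was -0.00353. The 7 log2 fold changes kept their sign in all other alternatives, apart from *Postn*, at 1.14 after cells of high doublet score were removed. The cause was not tested.

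The count of genes whose effect differed from mesenchymal cells was 87 without a filter and 2 to 187 with each library left out, and from endothelial cells 118 to 225. Where a library is left out, its group has 1 library, assumed to vary like the other group. The mean share of epicardial cells was higher in *Ets1* eKO under every alternative, and the groups overlapped with at least 8 epicardial UMIs and with stricter limits. The cycling difference was -1.63 percentage points with all UMIs in place of 2000 and positive in the other alternatives, and the part of depth was not tested.

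With 2 pools per group, 767 cells and sexes unequal between pools, small changes would be missed, genotype cannot be fully told apart from sex, and the permutation tests cannot pass.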

Other observations

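Some transcripts found in epicardial cells are better known from other cells. *Csf1r*, the colony stimulating factor receptor gene of macrophages, stood at 42.4, 54.7, 57.2 and 51.6 CPM in epicardial cells, with the controls named before the *Ets1* eKO libraries, against means of 2.34 CPM in mesenchymal and 1.87 CPM in endothelial cells. Of the 14 genes of the immune list, 10 had UMIs in the same cells, and *Tyrobp*, *Ptprc*, *Laptm5* and *Mrc1* had 0. *Tek*, the gene from whose promoter the Cre line is named, stood at 161, 137, 174 and 127 CPM, below its endothelial mean of 428 CPM and above its mesenchymal mean of 33.3 CPM. *Myl7* UMIs were found in 75.7% of epicardial cells thinned to 2000 UMIs, against 6.06% of mesenchymal and 6.30% of endothelial cells and 77.3% of cardiomyocytes. These levels were present in all 4 libraries and were not tested, since the cells were chosen on measured genes.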
